A study of Mus musculus with 18 samples.

Results

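The genes of bile acid synthesis and its feedback control were followed in mouse liver. They were Cyp7a1, Cyp8b1, Cyp27a1, Cyp7b1, Cyp39a1, Hsd3b7, Akr1d1, Baat, Slc27a5 and Nr0b2, chosen by symbol for their known roles, and all 10 were found among the 19057 symbols of the liver RNA sequencing table. All livers came from male ICR mice, an outbred stock, at 10 weeks of age, with 3 mice in each of 6 groups (18 libraries). Con mice were controls, given saline by the methods of the study. STZ mice received a single injection of streptozotocin, a toxin that enters pancreatic beta cells and is used to model type 1 diabetes. A10-FMT and Con-FMT mice received streptozotocin and then oral gut microbiota, taken from donors dosed with alginate oligosaccharide (AOS) at 10 mg/kg or from control donors, and each kind of microbiota was a pool of the small intestinal content of its donors. AOS mice and STZ+AOS mice were labelled as treated with AOS at 10 mg/kg, without and with streptozotocin, and their dosing schedule is not given in the sources used here. By the methods of the study the values are RPKM, although the table itself names no unit. RPKM divide the reads of a gene by its length and by the library's mapped reads, and levels are compared between genes on that reading. Differences were tested with limma on log2(RPKM + 1) across all genes that passed a filter on low values, which all 10 genes passed, and genes count as called where that p, adjusted over all genes, was under 0.05.

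Bile acids are made from cholesterol in hepatocytes. In the classical route CYP7A1, the rate-limiting enzyme, hydroxylates cholesterol itself, and CYP8B1 then directs the product towards cholic acid. In the alternative route CYP27A1 first oxidizes the side chain and CYP7B1 hydroxylates the resulting oxysterols, while CYP39A1 acts on an oxysterol made mainly in brain. HSD3B7 and AKR1D1 modify the sterol ring in both routes, and SLC27A5 and BAAT activate bile acids and couple them to taurine or glycine. Bile acids repress their own synthesis: through the receptor FXR (Nr1h4) they induce SHP (Nr0b2), a repressor of Cyp7a1 and Cyp8b1, and in the intestine they induce FGF15, which signals to the liver through FGFR4 and beta-klotho (Klb).

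Between STZ and Con 5 of the 10 genes were called, where 38.5% of all 10602 genes tested were called. Cyp7b1 and Hsd3b7 fell, and Cyp39a1, Akr1d1 and Slc27a5 rose, while Cyp7a1, Cyp8b1, Cyp27a1, Baat and Nr0b2 did not pass. In separate mice, STZ+AOS against AOS called the same 5 genes in the same directions, with 37.9% of 10822 genes called. The calls of Akr1d1 and Slc27a5 in that comparison were lost after median-ratio scaling. No gene of the 10 was called between STZ and either microbiota group with all 3 STZ mice in the fit.

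A few libraries bear on these results. STZ mouse 3 stood apart from its group, with a first principal component score of -0.18 against -45.9 and -46.4 for STZ mice 1 and 2. Con mice lay at 37.6 to 42.6 on that component, so STZ mouse 3 was singled out along the axis on which STZ and Con differ, and values without it are descriptions as well. STZ+AOS mouse 1 held the lowest Cyp7a1 and Cyp8b1 of all 18 libraries, but its first principal component score of -40.0 lay beside those of its group (-41.0 and -31.6). It was singled out by these genes alone, so their values without it are also descriptions and no test. STZ+AOS mouse 3 held pancreatic acinar genes (Ctrb1 at 36.45 RPKM, against 0.49 RPKM or less in Con and 0 RPKM in STZ). Values without these mice are given where a call or a direction changed or a fold moved by over 1.5 times. The liver label fitted its markers: the 8 hepatocyte markers summed to 40021.7 to 63212.7 RPKM with Alb the most abundant, and Alb was 30344 ± 6493 RPKM in Con and 30089 ± 5836 RPKM in STZ (mean ± SD, n = 3).

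The genes lie on 7 chromosomes of GRCm38 (GENCODE M21). Cyp7a1 (chr4:6265612-6275633), Baat (chr4:49489422-49506557) and Nr0b2 (chr4:133553376-133556536) share chromosome 4, and Hsd3b7 (chr7:127800604-127803802) and Slc27a5 (chr7:12988346-12998192) share chromosome 7. Cyp8b1 (chr9:121914356-121916305) has a single exon, and the others are Cyp27a1 (chr1:74713574-74737892), Cyp7b1 (chr3:18071950-18243338), Cyp39a1 (chr17:43667425-43751431) and Akr1d1 (chr6:37530173-37568815). Exons of 2 other annotated genes, 9430064I24Rik on the opposite strand and Gm49388 on the same strand, overlap exons of Hsd3b7, whose reads cannot be told apart from theirs here. RefSeq promoter windows (GRCm38.p6, 250 bases before to 50 after the gene start) matched 5 of 10 genes, namely Cyp27a1, Nr0b2, Akr1d1, Hsd3b7 and Cyp8b1. The nuclear receptor half-site AAGGTCA was searched on both strands, since SHP acts through receptors of this class. It occurred in 0 of 5 windows and in 4.72% of all 32851 windows. The shorter core AGGTCA, chosen after the data were seen and contained in the longer motif, occurred in Akr1d1 only among the 5, where it lay on the minus strand 2 times, and in 16.3% of all windows. The windows of Akr1d1 (chr6:37529923-37530222, plus strand) and Hsd3b7 (chr7:127800359-127800658, plus strand) are printed because these genes were called in STZ against Con, one in each direction, and capitals mark AGGTCA as read on the other strand.
Akr1d1: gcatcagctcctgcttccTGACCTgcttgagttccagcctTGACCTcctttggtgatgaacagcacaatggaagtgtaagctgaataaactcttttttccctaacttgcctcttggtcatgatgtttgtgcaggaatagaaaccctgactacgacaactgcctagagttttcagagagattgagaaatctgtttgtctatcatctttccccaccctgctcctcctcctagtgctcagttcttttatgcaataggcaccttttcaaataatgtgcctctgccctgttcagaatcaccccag
Hsd3b7: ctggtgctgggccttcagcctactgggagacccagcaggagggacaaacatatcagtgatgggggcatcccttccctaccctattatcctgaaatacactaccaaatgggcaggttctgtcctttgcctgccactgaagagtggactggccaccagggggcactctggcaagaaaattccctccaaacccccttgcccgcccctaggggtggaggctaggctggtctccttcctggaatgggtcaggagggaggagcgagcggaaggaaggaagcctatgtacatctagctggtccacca

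The classical route did not move together with STZ. Cyp7a1 was 30.72, 24.27 and 27.53 RPKM in Con mice 1 to 3 and 75.45, 25.49 and 25.09 RPKM in STZ mice 1 to 3, so STZ mouse 1 lay above all Con mice and the other STZ mice lay within or close to their range (adjusted p 0.446). Cyp8b1 was 167.93, 230.74 and 205.81 RPKM in Con and 215.26, 119.58 and 253.03 RPKM in STZ, and the groups overlapped (adjusted p 0.827). In AOS mice Cyp7a1 was 8.92, 16.91 and 14.33 RPKM and in STZ+AOS mice 1.91, 63.77 and 34.12 RPKM. Mouse 1 of STZ+AOS lay below and mice 2 and 3 lay above all AOS mice (adjusted p 0.694). The log2 change of Cyp7a1 was 1.77 without STZ+AOS mouse 1, where the fit would call it, and since that mouse was picked by its Cyp7a1 this is no test. Cyp8b1 was 231.68, 205.18 and 208.22 RPKM in AOS and 13.76, 273.27 and 310.43 RPKM in STZ+AOS. Its log2 change of -1.0 (SE 0.78, adjusted p 0.323) turned to 0.44 without STZ+AOS mouse 1.

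**Figure D1:**
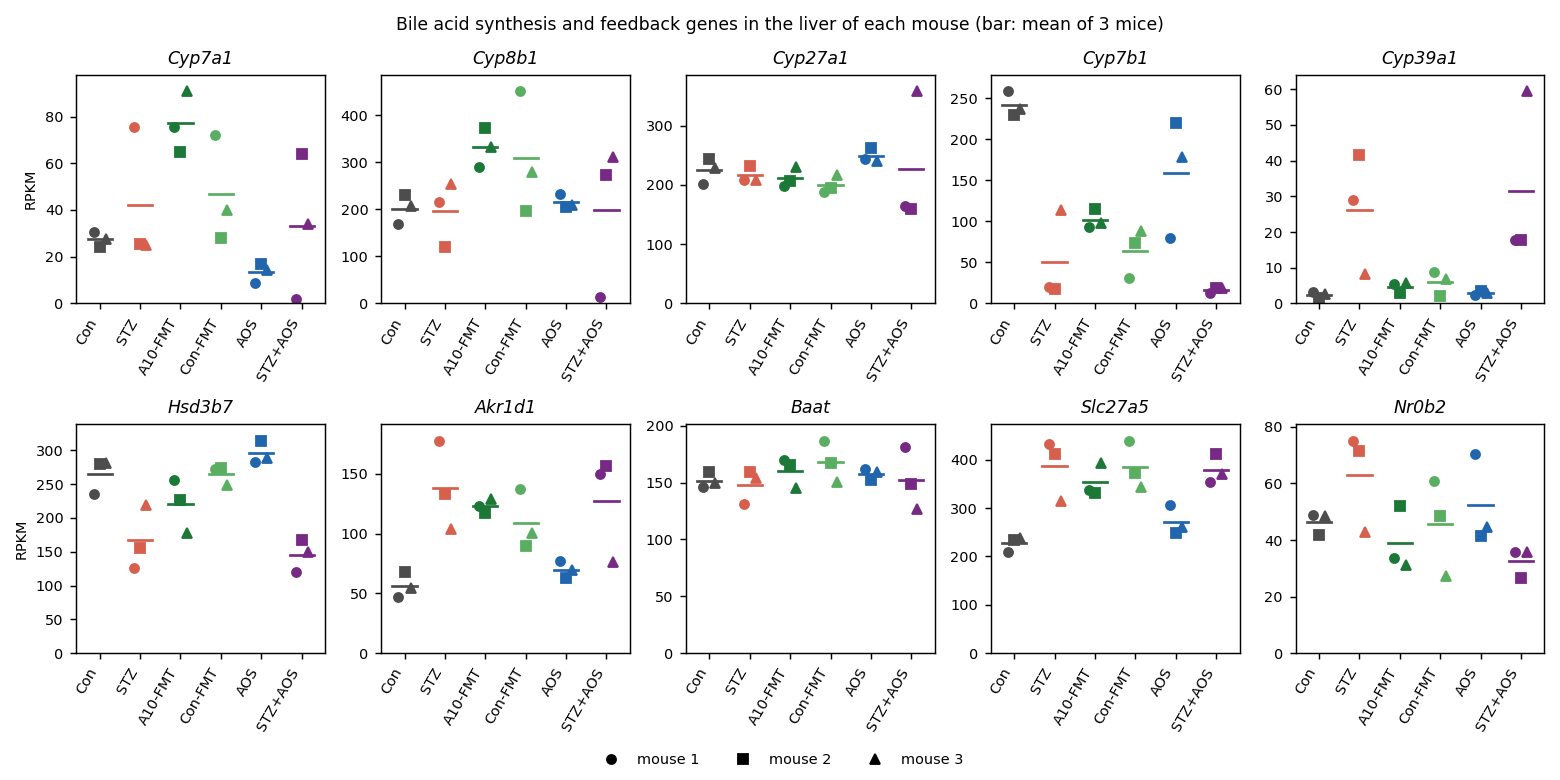
RPKM of the 10 genes (linear axes from 0) in the liver of each mouse, with 1 panel per gene, 3 mice per group (circle, square, triangle for mice 1 to 3) and a bar at the group mean. Cyp7b1 was 17.72 to 113.47 RPKM in STZ and 229.54 to 258.49 RPKM in Con, STZ+AOS mouse 1 held the lowest Cyp7a1 and Cyp8b1, and Baat stayed between 126.61 and 186.40 RPKM in all 18 mice.

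In the alternative route Cyp7b1 fell and Cyp27a1 was not called, and the difference between the 2 genes was not tested. Cyp7b1, the oxysterol 7-alpha-hydroxylase, was 258.49, 229.54 and 237.29 RPKM in Con and 20.07, 17.72 and 113.47 RPKM in STZ. All STZ mice lay below all Con mice, and STZ mouse 3 was the highest of its group. The fall was 2.77 on the log2 scale (SE 0.58, adjusted p 0.00454, 6.81-fold lower), and without STZ mouse 3 it was 3.61. In AOS mice Cyp7b1 was 80.40, 220.05 and 178.21 RPKM and in STZ+AOS mice 12.31, 18.51 and 19.38 RPKM, again without overlap (log2 change -3.08, SE 0.55, adjusted p 0.001). Cyp27a1, the sterol side-chain hydroxylase upstream of it, was 201.51 to 243.92 RPKM in Con and 207.83 to 232.74 RPKM in STZ (log2 change -0.05, adjusted p 0.743). Cyp27a1 was called lower in STZ after median-ratio scaling (log2 change -0.32, adjusted p 0.0381) and median centring (-0.30, adjusted p 0.0472), and not after quantile normalization (-0.26, adjusted p 0.107). Its highest value was 357.73 RPKM in STZ+AOS mouse 3. In STZ+AOS against AOS it was not called (adjusted p 0.408). Without STZ+AOS mouse 3, which held that highest value, the log2 change was -0.62 and the fit would call it, which is no test either. Fewer hepatocytes that express a gene and less RNA per cell cannot be told apart in these whole-liver values.

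Cyp39a1 moved the other way from Cyp7b1. It was 3.25, 1.47 and 2.52 RPKM in Con and 28.90, 41.48 and 8.22 RPKM in STZ, and all STZ mice lay above all Con mice, with mouse 3 the lowest of the STZ mice. The rise was 2.77 on the log2 scale (SE 0.54, adjusted p 0.00333, 6.82-fold), and without STZ mouse 3 it was 3.42, where 47.4% of all genes were called. In AOS it was 2.29, 3.54 and 2.92 RPKM and in STZ+AOS 17.65, 17.63 and 59.37 RPKM, also without overlap (log2 change 2.83, SE 0.55, adjusted p 0.00162; 2.26 without STZ+AOS mouse 3, which held the highest value). Across the 18 mice the log2 levels of Cyp39a1 and Cyp7b1 had a Pearson r of -0.854, and within groups, as deviations from the group means, of -0.486. These are descriptions over mice that share groups, with no test.

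Of the ring enzymes, Hsd3b7 fell and Akr1d1 rose. Hsd3b7, the C27 sterol dehydrogenase, was 234.60, 279.47 and 280.75 RPKM in Con and 126.31, 155.14 and 219.03 RPKM in STZ, without overlap (log2 change -0.70, SE 0.19, adjusted p 0.0167). This call was lost without STZ mouse 1 (adjusted p 0.0595), STZ mouse 2 (adjusted p 0.0553) or Con mouse 3 (adjusted p 0.0578). In AOS it was 283.34, 313.43 and 288.98 RPKM and in STZ+AOS 120.24, 166.84 and 149.54 RPKM, a larger gap between groups (log2 change -1.03, SE 0.18, adjusted p 0.000944). Akr1d1, the steroid 5-beta-reductase that bends the ring system of bile acids, was 46.57, 67.49 and 54.69 RPKM in Con and 177.24, 133.15 and 103.69 RPKM in STZ. Every STZ mouse exceeded every Con mouse (log2 change 1.26, SE 0.21, adjusted p 0.00155). In AOS it was 77.02, 62.97 and 69.68 RPKM and in STZ+AOS 149.47, 156.43 and 76.16 RPKM, where STZ+AOS mouse 3 overlapped the AOS mice (log2 change 0.79, SE 0.25, adjusted p 0.0223). This second call was lost without STZ+AOS mouse 1 (adjusted p 0.0832) and after median-ratio scaling, which divides each library by 1 factor taken from the ratios of its genes to their geometric means (adjusted p 0.0931).

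Of the enzymes of conjugation, Slc27a5 rose and Baat was not called, and the difference between them was not tested. Slc27a5, the bile acid CoA ligase, was 209.31, 234.75 and 237.93 RPKM in Con and 432.96, 411.53 and 313.69 RPKM in STZ, and all STZ mice lay above all Con mice (log2 change 0.75, SE 0.15, adjusted p 0.00361). In AOS it was 305.53, 248.69 and 260.68 RPKM and in STZ+AOS 354.80, 411.62 and 371.42 RPKM, again without overlap (log2 change 0.48, SE 0.14, adjusted p 0.0152), a call lost after median-ratio scaling (adjusted p 0.139). Baat, the transferase that follows it, was the steadiest of the 10 genes, with a highest value over all 18 mice 1.47 times its lowest, while Cyp7a1 covered a 47.5-fold, Cyp39a1 a 40.4-fold and Cyp8b1 a 32.7-fold range. Without STZ+AOS mouse 1 the ranges of Cyp7a1 and Cyp8b1 were 10.2-fold and 3.76-fold. Nr0b2, which encodes SHP, was 48.68, 41.78 and 48.67 RPKM in Con and 74.96, 71.41 and 42.92 RPKM in STZ (adjusted p 0.299). STZ mice 1 and 2 were the highest of all 18 and STZ mouse 3 lay within the Con range.

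**Figure D2:**
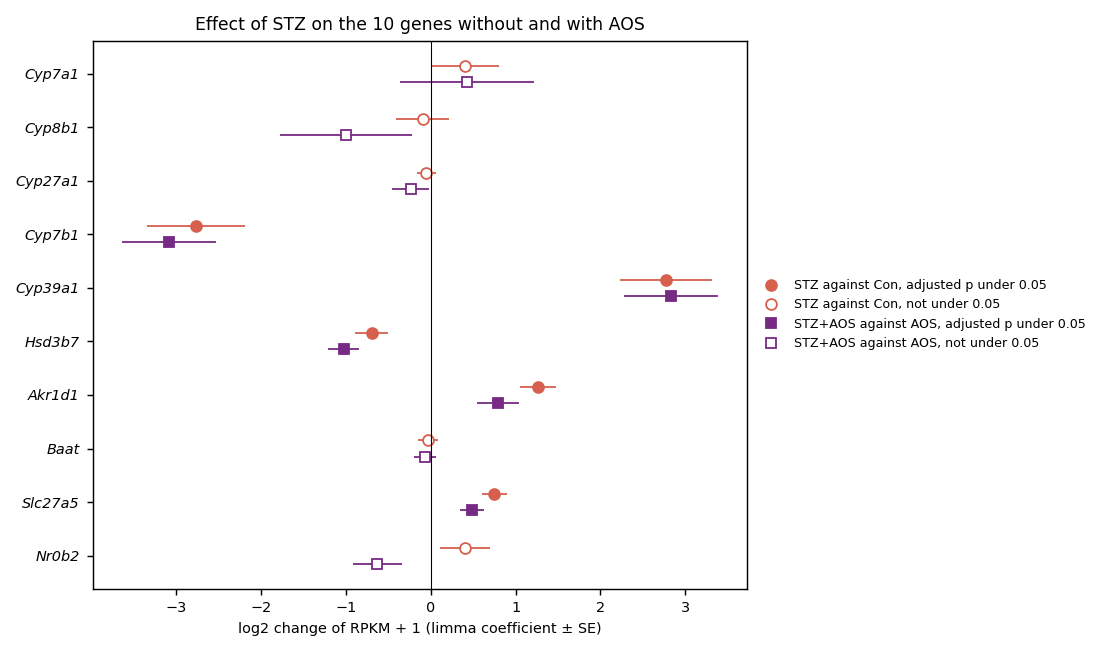
Log2 change of RPKM + 1 (x axis, limma coefficient ± SE) of each gene (y axis) for STZ against Con (circles) and STZ+AOS against AOS (squares), 3 mice per group, with filled symbols for an adjusted p under 0.05. Cyp7b1 lies at -2.77 and -3.08 and Cyp39a1 at 2.77 and 2.83, and Nr0b2 lies on opposite sides of 0 with open symbols.

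The difference of the STZ effect between AOS-treated and other mice was tested as an interaction and gave 0 of 10 genes (0% of all genes tested were called, and 1 of the 10 had an unadjusted p under 0.05, where 5.4% of all genes had). That gene was Nr0b2. It was 70.56, 41.46 and 44.74 RPKM in AOS and 35.78, 26.59 and 35.77 RPKM in STZ+AOS, where all 3 STZ+AOS mice lay below all AOS mice (log2 change -0.63, SE 0.29, adjusted p 0.0943) and below all STZ mice (log2 change -0.90, SE 0.29, unadjusted p 0.00693, adjusted p 0.806). Its interaction was -1.03 (SE 0.41, unadjusted p 0.023, adjusted p 0.856). After median-ratio scaling Nr0b2 passed in STZ+AOS against AOS (log2 change -0.87, adjusted p 0.0322).

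Whether gut microbiota moved these genes in STZ mice was asked with A10-FMT and Con-FMT against STZ, which share the STZ mice. A10-FMT against STZ called 0 of 10 genes (0.226% of all genes) and Con-FMT against STZ 0 of 10 (0.00943%), with 5 and 2 of the 10 at an unadjusted p under 0.05, where 20.9% and 20.1% of all genes were. Cyp7a1 was 75.65, 64.99 and 90.74 RPKM in A10-FMT, higher than STZ mice 2 and 3 but not separate from STZ mouse 1 (log2 change 1.04, SE 0.40, adjusted p 0.182). Leaving out 1 STZ mouse gave 1.56 without mouse 1 (adjusted p 0.0464), which held the highest Cyp7a1 of the STZ mice, 0.79 without mouse 2 (adjusted p 0.511) and 0.78 without mouse 3 (adjusted p 0.235). In Con-FMT it was 72.00, 27.82 and 40.12 RPKM (adjusted p 0.774). Cyp8b1 was 290.54, 371.60 and 332.78 RPKM in A10-FMT, above all STZ mice (log2 change 0.82, SE 0.31, adjusted p 0.179), and 449.99, 196.88 and 279.88 RPKM in Con-FMT, which overlapped STZ (log2 change 0.64, SE 0.31, adjusted p 0.272). Nr0b2 was 33.50, 52.20 and 31.31 RPKM in A10-FMT and 60.94, 48.59 and 27.42 RPKM in Con-FMT. Both groups overlapped STZ, with a log2 change of -0.68 in A10-FMT (SE 0.29, unadjusted p 0.0416, adjusted p 0.224) and an adjusted p of 0.37 in Con-FMT.

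The group means of Cyp7b1, Cyp39a1, Akr1d1 and Slc27a5 lay between those of STZ and Con in both microbiota groups. These genes were called in STZ against Con with the same STZ and Con mice, which favours such an order, so it is a description and no test. For Slc27a5 the Con-FMT mean (384.28 RPKM) was close to that of STZ (386.06 RPKM). Cyp7b1 was 92.95, 114.80 and 97.74 RPKM in A10-FMT and 30.43, 73.42 and 88.35 RPKM in Con-FMT, and in both groups STZ mouse 3 overlapped. Its log2 change was 1.52 (SE 0.58, adjusted p 0.179) in A10-FMT and 0.74 (SE 0.58, adjusted p 0.5) in Con-FMT against STZ, and without STZ mouse 3, the STZ mouse with the highest Cyp7b1, it was 2.37 and 1.58. Without STZ mouse 1 the adjusted p was 0.323 and 0.795, and without STZ mouse 2 it was 0.52 and 0.89. Cyp39a1 was 5.37, 2.99 and 5.77 RPKM in A10-FMT, below all STZ mice, and 8.81, 2.01 and 6.89 RPKM in Con-FMT, of which mouse 1 overlapped STZ mouse 3. Its log2 changes were -2.03 (SE 0.54, adjusted p 0.0915) and -1.88 (SE 0.54, adjusted p 0.112), and without STZ mouse 3, which held the lowest Cyp39a1 of the STZ mice, they were -2.68 and -2.53. Without STZ mouse 1 the adjusted p was 0.139 and 0.203, and without STZ mouse 2 it was 0.34 and 0.353. Hsd3b7 was 256.46, 226.81 and 177.22 RPKM in A10-FMT (adjusted p 0.245) and 271.64, 273.90 and 248.42 RPKM in Con-FMT, above all STZ mice (log2 change 0.70, SE 0.19, adjusted p 0.105). Without STZ mouse 3, which held the highest Hsd3b7 of the STZ mice, the log2 changes were 0.63 and 0.91, and the adjusted p was 0.195 to 0.532 without STZ mouse 1 or 2. The fit without STZ mouse 3 would call these 3 of 10 genes in both comparisons, beside 12.7% of all genes for A10-FMT and 15.5% for Con-FMT, against 0.226% and 0.00943% with all mice. Akr1d1 was 117.22 to 128.87 RPKM in A10-FMT and 89.57 to 137.36 RPKM in Con-FMT, and Slc27a5 was 330.59 to 393.65 RPKM and 342.73 to 438.39 RPKM, all overlapping STZ. For A10-FMT and Con-FMT against STZ the adjusted p was 0.753 and 0.399 in Akr1d1, and 0.692 and 0.999 in Slc27a5.

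**Figure D3:**
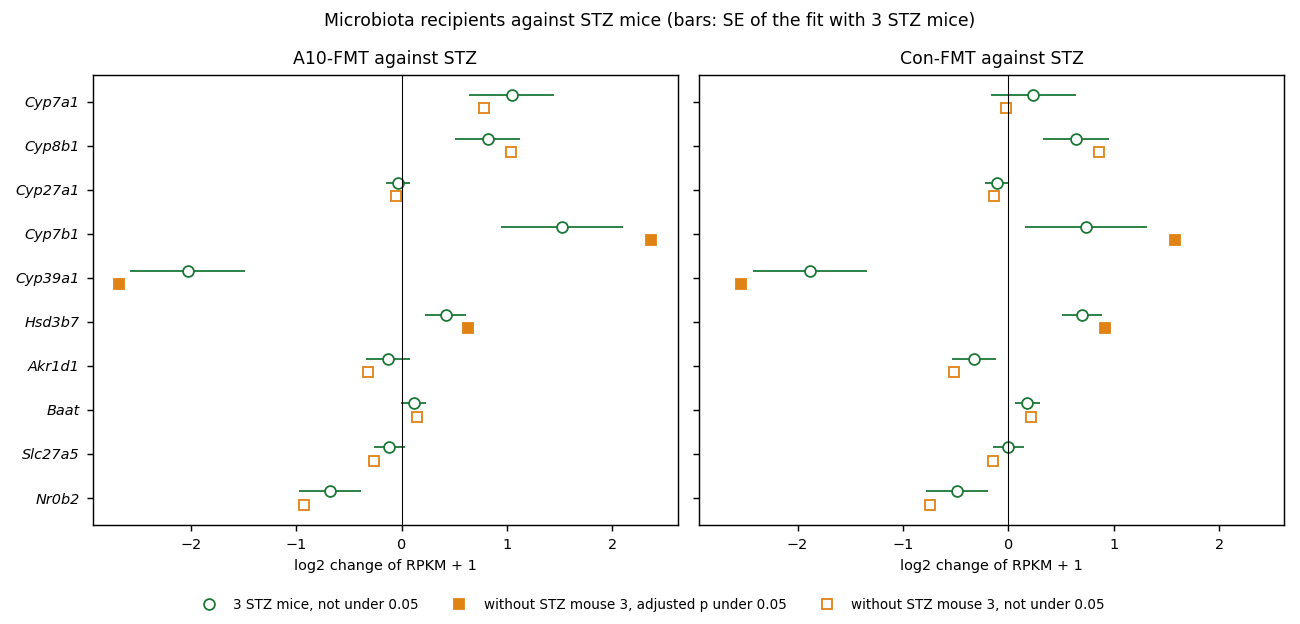
Log2 change of RPKM + 1 (x axis) of each gene (y axis) in A10-FMT (left) and Con-FMT (right) against STZ, with all 3 STZ mice (circles, bars are the SE) and without STZ mouse 3 (squares), filled where the adjusted p was under 0.05. All circles are open, and without STZ mouse 3 the squares of Cyp7b1, Cyp39a1 and Hsd3b7 are filled in both panels, where 12.7% (A10-FMT) and 15.5% (Con-FMT) of all genes were called.

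Against Con, which both microbiota groups and STZ share, A10-FMT had 3 of 10 genes called (18.4% of all genes) and Con-FMT 3 of 10 (19.4%). Akr1d1 was higher in A10-FMT by 1.13 (SE 0.21, adjusted p 0.00665) and in Con-FMT by 0.94 (SE 0.21, adjusted p 0.0141), and Slc27a5 by 0.63 (SE 0.15, adjusted p 0.0176) and 0.75 (SE 0.15, adjusted p 0.00994). The Con-FMT call of Akr1d1 was lost without Con mouse 1 (adjusted p 0.0638), Con mouse 3 (0.0516) or Con-FMT mouse 1 (0.0612), and the A10-FMT call of Slc27a5 without Con mouse 1 (0.073), Con mouse 3 (0.0514) or A10-FMT mouse 3 (0.0789). Cyp7a1 was higher in A10-FMT than in Con by 1.45 (SE 0.40, adjusted p 0.0312), and all 3 A10-FMT mice lay above all Con mice. That call held in 9 of 20 alternative settings and was lost without any 1 of the A10-FMT or Con mice (adjusted p 0.0565 to 0.108), under each of 3 other scalings (adjusted p 0.0613 to 0.076), without the filter on low values (adjusted p 0.0615) and with all 6 groups in the fit (adjusted p 0.213). Cyp7b1 was lower in Con-FMT than in Con by a log2 change of -2.03 (SE 0.58, adjusted p 0.0339), lost without Con-FMT mouse 1 (adjusted p 0.138), without any 1 of the Con mice (adjusted p 0.0663 to 0.105), after quantile normalization (0.0516) and without the filter (0.0658), and in A10-FMT by -1.24 (SE 0.58, adjusted p 0.15; 0.0152 with STZ mouse 3 left out of the shared estimate of spread), where the mice did not overlap. Cyp27a1 was not called in Con-FMT against Con (adjusted p 0.32), but was called lower after median-ratio scaling (log2 change -0.39, adjusted p 0.0402) and median centring (-0.36, adjusted p 0.0473). A10-FMT against Con-FMT called 0 of 10 genes and 0% of all genes, and 0 of the 10 had an unadjusted p under 0.05 (2.86% of all genes). Cyp7a1 (log2 difference 0.81, SE 0.40) and Cyp7b1 (log2 difference 0.79, SE 0.58) differed most, both with an adjusted p of 0.999 and an unadjusted p of 0.0686 and 0.201. In Cyp7b1 all 3 A10-FMT mice (92.95 to 114.80 RPKM) lay above all Con-FMT mice (30.43 to 88.35 RPKM), and no gene was called at 3 mice per group.

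AOS alone against Con called 0 of 10 genes (0.00924% of all genes; 0 of the 10 and 7.22% of all genes had an unadjusted p under 0.05). All 3 AOS mice lay below all Con mice in Cyp7a1 (13.4 ± 4.08 RPKM against 27.5 ± 3.23 RPKM, mean ± SD, log2 change -1.02, SE 0.79, adjusted p 0.82) and in Cyp7b1 (160 ± 71.7 RPKM against 242 ± 15 RPKM, log2 change -0.71, SE 0.55, adjusted p 0.821; -0.28 without AOS mouse 1). They lay above all Con mice in Hsd3b7 (283.34 to 313.43 RPKM against 234.60 to 280.75 RPKM, adjusted p 0.89) and in Slc27a5 (248.69 to 305.53 RPKM against 209.31 to 237.93 RPKM, adjusted p 0.759). In the order of group means Cyp7a1 ran from A10-FMT (77.1 ± 12.9 RPKM) over Con-FMT (46.6 ± 22.8), STZ (42.0 ± 29.0), STZ+AOS (33.3 ± 30.9) and Con to AOS, and only Con and AOS did not overlap among neighbours. STZ+AOS against STZ also called 0 of 10 genes (0% of all genes, and 1 of the 10, Nr0b2, at an unadjusted p under 0.05, where 6.07% of all genes were), with log2 changes of -1.0 in Cyp7a1 (adjusted p 0.823), -0.80 in Cyp8b1 (adjusted p 0.855) and -1.03 in Cyp7b1 (adjusted p 0.811; -0.19 without STZ mouse 3). Without STZ+AOS mouse 1 those of Cyp7a1 and Cyp8b1 turned to 0.35 and 0.64.

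The ratio of Cyp7a1 to Cyp7b1 compares the entry enzyme of the classical route with the hydroxylase of the alternative route within a liver, and it needs no scaling between libraries. It was 0.106 to 0.119 in Con and 0.0768 to 0.111 in AOS. In STZ it was 3.76, 1.44 and 0.221 in mice 1 to 3, and in STZ+AOS 0.155, 3.45 and 1.76. A10-FMT mice lay at 0.566 to 0.928 and Con-FMT mice at 0.379 to 2.37. All 12 mice given STZ had a higher ratio than all 6 mice that were not, and the 2 lowest of the 12 were STZ+AOS mouse 1 and STZ mouse 3. These ratios are given as a description, with no test.

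**Figure D4:**
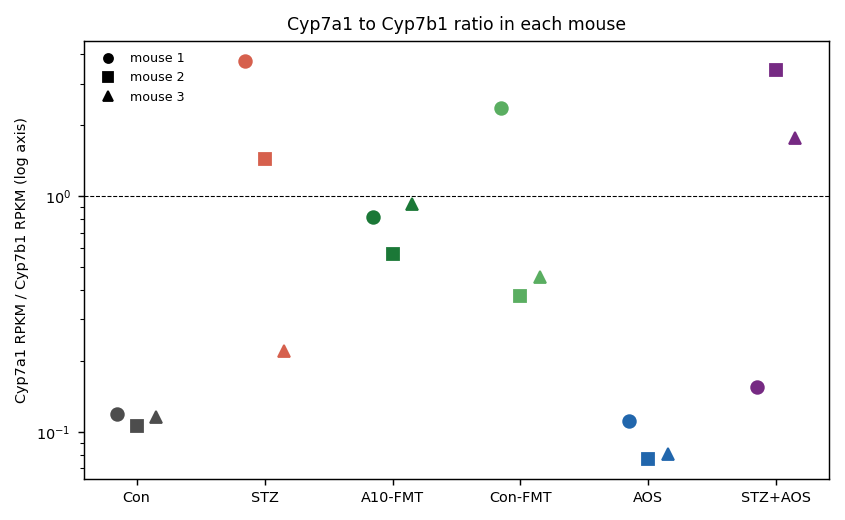
Ratio of Cyp7a1 RPKM to Cyp7b1 RPKM in each mouse (y axis, log scale) by group (x axis), with symbols for mice 1 to 3 and a dashed line at 1. Con and AOS mice lie at 0.0768 to 0.119, and all mice given STZ lie at 0.155 or above.

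Cyp7a1 and Cyp8b1 varied together from mouse to mouse. Their log2 levels had a Pearson r of 0.795 over 18 mice and 0.555 over the 17 without STZ+AOS mouse 1. In that mouse Cyp7a1 was 1.91 RPKM and Cyp8b1 13.76 RPKM. It also held the lowest Cyp7b1 (12.31 RPKM) and Hsd3b7 (120.24 RPKM) of all 18 mice. Its Baat (181.17 RPKM) and Slc27a5 (354.80 RPKM) lay within the range of the other mice given streptozotocin. The 3 genes with the pattern most like Cyp7a1 among 10822 were Gulo (r 0.901), Glul (0.858) and Msmo1 (0.855), with r of 0.809, 0.743 and 0.771 without that mouse. Gulo encodes an enzyme of ascorbate synthesis, Glul the glutamine synthetase of pericentral hepatocytes and Msmo1 an enzyme of cholesterol synthesis. Glul was 110.14 RPKM in STZ+AOS mouse 1 and 166.90 to 340.16 RPKM in all other mice. For Cyp8b1 they were Dnajb2 (0.849), Fads2 (0.843) and Aifm3 (0.836), with r of 0.646, 0.758 and 0.528 without that mouse, and for Cyp7b1 Selenbp2 (0.979), Susd4 (0.965) and Lama3 (0.962). Selenbp2 was 1196.48 to 1676.92 RPKM in Con and 12.14 to 224.49 RPKM in STZ, with the highest STZ value in mouse 3, as for Cyp7b1. For Nr0b2 the nearest patterns were weaker (BC048644 at 0.665, 4930512M02Rik at 0.656 and Tagln at 0.655).

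**Figure D5:**
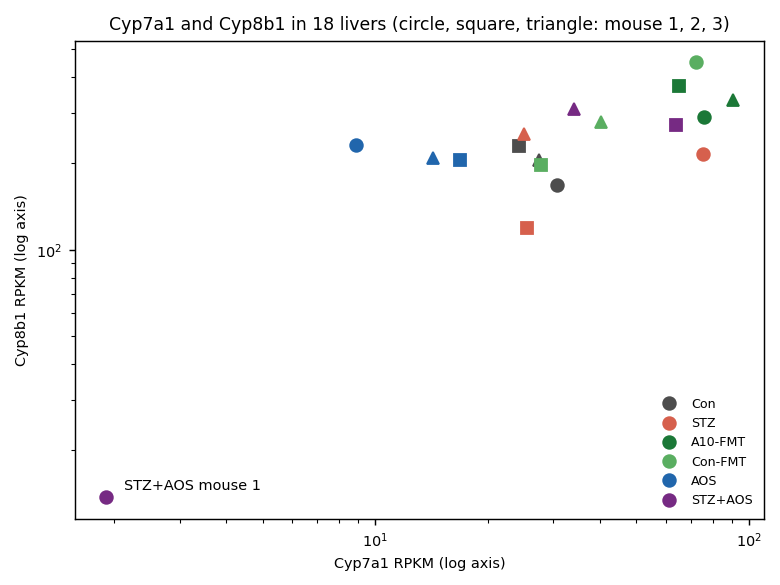
Cyp8b1 RPKM (y axis, log scale) against Cyp7a1 RPKM (x axis, log scale) in 18 livers, with a colour per group and a symbol per mouse number. STZ+AOS mouse 1 lies alone at 1.91 and 13.76 RPKM, and the other 17 mice range from 8.92 to 90.74 RPKM in Cyp7a1.

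Other genes of the pathway gave a broader picture of the STZ liver. Over all genes the log2 change had a median of 0.21 in STZ against Con and in STZ+AOS against AOS, and median-ratio scaling, which brought it to -0.0070 and 0.011, moved the split of all called genes from 3502 higher and 585 lower to 1488 higher and 1405 lower in STZ against Con. Of 9 other synthesis genes tested, 3 rose and 2 fell in STZ against Con (median 0.26), where 38.5% of all 10602 genes were called. After median-ratio scaling 1 rose and 2 fell. The very long chain acyl-CoA synthetase gene Slc27a2 rose by 1.20 (SE 0.17, adjusted p 0.000751), Hsd17b4 by 0.48 (adjusted p 0.00791) and Acox2 by 0.59 (adjusted p 0.0105), both of peroxisomal side-chain shortening and both lost under each of 3 other scalings. Cyp2c70, which makes the muricholic acids of mice, fell by 1.02 (SE 0.23, adjusted p 0.00638), from 618.27, 590.47 and 596.26 RPKM in Con to 283.75, 368.57 and 249.96 RPKM in STZ. In STZ+AOS against AOS, 2 rose and 2 fell, with Cyp2c70 at -1.17 (adjusted p 0.00198), where 37.9% of all 10822 genes were called. The rises there, of Slc27a2 and Acox2, were no longer called after median-ratio scaling (adjusted p 0.14 and 0.0583) or median centring (0.152 and 0.0797). That of Slc27a2 was also lost after quantile normalization (adjusted p 0.119). Amacr was called in A10-FMT and Con-FMT against Con (log2 change 0.46 and 0.53) and Acot8 in Con-FMT against Con (0.31). These 3 calls were lost under each of 3 other scalings (adjusted p 0.152 to 0.557) and without any 1 of the Con mice (adjusted p 0.0526 to 0.154).

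Among 17 receptors and regulators tested, 10 rose and 0 fell in STZ against Con (median 0.52), where 38.5% of all genes were called. After median-ratio scaling 7 rose and 1 fell. Klb, the co-receptor of FGF15, was 3.29, 5.65 and 4.35 RPKM in Con and 16.31, 21.33 and 11.55 RPKM in STZ (log2 change 1.66, SE 0.20, adjusted p 0.00047), while Fgfr4 itself was 19.79 to 20.76 RPKM in Con and 19.86 to 20.84 RPKM in STZ (adjusted p 0.999). Nr5a2 (LRH-1), an activator of Cyp7a1 and Cyp8b1, rose by 0.75 (SE 0.11, adjusted p 0.000859), Hnf4a by 0.75 (SE 0.11, adjusted p 0.00102) and the coactivator gene Ppargc1a by 1.86 (SE 0.28, adjusted p 0.00105; 2.74 with a pseudocount of 0.1). FXR (Nr1h4) was 54.44 to 65.49 RPKM in Con and 59.90 to 80.46 RPKM in STZ (adjusted p 0.22), and it passed in STZ+AOS against AOS (log2 change 0.45, adjusted p 0.0121) and A10-FMT against Con (0.49, adjusted p 0.0387). Both calls of Nr1h4 were lost after median-ratio scaling (adjusted p 0.143 and 0.128) and median centring (0.177 and 0.114). The second was also lost after quantile normalization (0.237), without the filter on low values (0.0596) and with a replicate block (0.0539). It was lost as well without any 1 of the A10-FMT mice (0.0724 to 0.128), Con mouse 1 (0.138) or Con mouse 3 (0.106). In STZ+AOS against AOS 8 of 17 rose and 0 fell (4 and 1 after median-ratio scaling), where 37.9% of all 10822 genes were called. Tfeb was among those that rose (0.64, adjusted p 0.0138). Its call was lost under each of 3 other scalings (adjusted p 0.062 to 0.0846) and without STZ+AOS mouse 3 (0.0634), AOS mouse 2 (0.0689) or AOS mouse 3 (0.0544). Fgf15 was not analysed here.

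Among all genes tested, 3502 of 10602 rose and 585 fell in STZ against Con, and 37.9% of 10822 were called in STZ+AOS against AOS. Of 11 transporters of bile acids or bile phospholipid tested, 8 rose and 2 fell in STZ against Con (median 1.13), and 6 rose and 2 fell in STZ+AOS against AOS (median 0.96). The uptake carrier Slco1a4 was 2.78, 8.43 and 5.55 RPKM in Con and 154.21, 131.31 and 66.45 RPKM in STZ (log2 change 4.18, SE 0.44, adjusted p 0.000292). The exporters Abcc2 (1.25, adjusted p 0.00047) and Abcc3 (1.74, adjusted p 0.000518) rose too, as did the phospholipid exporter Abcb4 (1.53, adjusted p 0.000326). Slco1a1 fell by 3.80 (adjusted p 0.0197), a call lost without STZ mouse 1 (adjusted p 0.0687), STZ mouse 2 (0.0761), Con mouse 1 (0.0527) or Con mouse 3 (0.0517). Its log2 change was -3.24 without STZ mouse 1, -2.59 without STZ mouse 2 and -5.59 without STZ mouse 3. The Slco1a1 call in STZ+AOS against AOS was lost without STZ+AOS mouse 1 (log2 change -2.30, adjusted p 0.124) or any 1 of the AOS mice (adjusted p 0.0515 to 0.0682). The bile duct carrier Slc10a2 fell, and Slc51a is listed at 0 in all libraries. All 6 sulfation and detoxification genes were called, 5 higher and 1 lower (median 1.74; 4 and 1 in STZ+AOS against AOS). Ugt1a1 rose by 2.06 (adjusted p 0.000637) and Papss2 by 1.42 (adjusted p 0.0011), and the hydroxysteroid sulfotransferases Sult2a1 and Sult2a2 by 7.33 (adjusted p 0.00474) and 6.23 (adjusted p 0.00616) on the log2(RPKM + 1) scale. These changes were 9.11 and 7.76 without STZ mouse 3 and 5.90 and 5.19 without STZ mouse 1, and 9.25 and 9.20 with a pseudocount of 0.1. Sult2a1 was 0.21, 0.07 and 0.56 RPKM in Con and 1460.45, 332.64 and 16.10 RPKM in STZ. Of 8 sterol export and LXR target genes 4 rose and 1 fell, in both comparisons. Abcg5 and Abcg8, which export cholesterol into bile, rose by 1.75 (adjusted p 0.000328) and 1.49 (adjusted p 0.000675), Scarb1 rose by 1.28 and Scd1 had a log2 change of -4.16 (-4.76 without STZ mouse 3). None of the genes of these lists was called in A10-FMT or Con-FMT against STZ, AOS against Con or STZ+AOS against STZ.

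Other gene groups moved in STZ against Con, where 38.5% of all 10602 genes tested were called. Their part in the results above was not tested. All STZ mice were male, yet of 10 male-biased liver genes 8 fell and 0 rose (median -3.70), among them Mup20, Elovl3, Hsd3b5 and Serpina12, and of 10 female-biased genes 8 rose and 0 fell (median 4.43), among them Cyp2a4, Cyp2b9, Cyp2b10 and Acot3. Mup20 was 5.17 and 11.96 RPKM in STZ mice 1 and 2, 388.88 RPKM in STZ mouse 3 and 2435.85 RPKM or more in Con. Of 13 clock genes 8 rose and 2 fell (median 1.96), and Nr1d1, a clock repressor, was 1.22, 3.68 and 2.72 RPKM in Con and 32.94, 35.12 and 22.86 RPKM in STZ (log2 change 3.19, adjusted p 0.000326). Nr1d2 (2.81), Per1 (2.60; 3.35 with a pseudocount of 0.1) and Tef (2.33) rose as well, and the time of day of tissue collection is not given in the sources used here. Of 8 pericentral genes, the zone in which Cyp7a1 is expressed, 5 rose and 1 fell (1 and 2 after median-ratio scaling), led by Oat (3.39, adjusted p 0.00019), and of 7 periportal genes 6 rose and 1 fell, led by Pck1 (2.76, adjusted p 0.000292).

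Markers of cells other than hepatocytes were followed too. Their counts are for STZ against Con, where 38.5% of all 10602 genes tested were called. Hba-a1, an alpha globin gene, was 1853.59, 893.56 and 1471.09 RPKM in Con and 404.07, 1625.96 and 1545.22 RPKM in STZ, and its highest value was 6454.94 RPKM in Con-FMT mouse 1. The red cell genes together summed to 398.88 RPKM in STZ+AOS mouse 1, the lowest of 18, and to 9833.51 RPKM in Con-FMT mouse 1, and the part of blood in the results above was not tested. The 7 Kupffer cell markers, led by Clec4f in Con, summed to 47.37 to 64.36 RPKM in Con and 66.13 to 161.68 RPKM in STZ, and 2 of 7 rose (Marco and Timd4). Marco was 3.34, 1.81 and 2.96 RPKM in Con and 21.08, 67.35 and 9.67 RPKM in STZ, and in STZ mouse 2, which had the highest sum, it exceeded Clec4f (35.37 RPKM). The 7 stellate cell markers, led by Dcn, summed to 77.39 to 93.68 RPKM in Con and 115.31 to 147.66 RPKM in STZ, and 1 of 7 rose (Dcn). Of 6 endothelial markers 2 rose (Kdr and Pecam1), of 4 cholangiocyte markers tested 2 fell (Sox9 and Slc10a2), and of 5 red cell genes tested 1 fell (Alas2, of haem synthesis in red cell precursors). The calls of Timd4, Dcn and Pecam1 were lost under each of 3 other scalings, and Timd4 in 11 of 20 alternatives. The bile duct keratin Krt19 was 0.89 to 1.54 RPKM in Con and 0.89 to 1.96 RPKM in STZ, and 0 of the 6 B and T cell markers passed the filter on low values. Of the 8 hepatocyte markers 3 rose and 2 fell, and of the 2 pancreatic and gut epithelial genes tested 0 were called in STZ against Con.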

How the data were processed

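Liver mRNA of 18 mice was sequenced by the authors on an Illumina HiSeq instrument, mapped to reference genes with SOAPaligner by the methods of the study, and deposited as RPKM per gene and library; the submitters' processing notes name Bowtie 0.12.2 and mm10. Reads per library are not held by RPKM; the spacing of low values in 143 genes put relative depths at 0.933 to 1.07, so counting error of low genes is unknown. RPKM were used as deposited. Genes had to reach 1 RPKM in 3 or more libraries of a fit, and log2(RPKM + 1) was fitted with limma 3.58.1 (R 4.3.3, eBayes with trend). The fit of 4 groups (12 libraries) gave the comparisons among Con, STZ, A10-FMT and Con-FMT, and the fit of 6 groups (18 libraries) those with AOS. P-values were two-sided, with Benjamini-Hochberg adjustment across every gene tested. For the 10 genes, log2 changes that were not called are given at a size of 0.5 or more. Smaller ones are given only for Cyp27a1 and where a mouse was left out. Nothing states whether mice shared cages or litters, and p-values set the differences only against the spread between these mice. Each kind of microbiota was a pool, so the 3 recipients of a pool do not replicate the treatment of its donors. The procedure was tested on simulated data. The members, the gene lists and the rule for named genes (all 10 members, at most 4 genes per other list, those ranked highest by p in STZ against Con, genes called in another comparison, and the 3 genes with the highest Pearson r to each of Cyp7a1, Cyp8b1, Cyp7b1 and Nr0b2) were chosen with earlier results of these data known. Hba-a1, Fgfr4, Slco1a1, Slc10a2, Krt19, Alb and Ctrb1 were named outside that rule, after their values were seen. Of 3 symbols that occur more than once none is a member. No source says that mouse numbers pair mice, and same-numbered mice deviated together (r over 0.1) in 16 of 45 pairs. All 3 pairs passed that limit only between A10-FMT and Con-FMT (r 0.121, 0.291 and 0.179), where a replicate block also called 0 genes. No libraries were identical. Alternatives were 3 scalings, a pseudocount of 0.1, no filter, no variance trend, a replicate block, other groups in the fit and leaving out each mouse.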

Additional observations from a re-analysis of the deposited data

How the results depend on the processing

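Of 16 results called for single members, 0 reversed and 9 kept their call under every alternative run. Leaving out 1 mouse at a time, the number of members called was 4 to 5 in STZ against Con, 0 to 3 between STZ and each microbiota group (3 without STZ mouse 3), 1 to 4 in A10-FMT against Con, 1 to 3 in Con-FMT against Con and 3 to 6 in STZ+AOS against AOS. Over all genes the same settings called 2562 to 5012 genes in STZ against Con, 547 to 2669 in A10-FMT against Con, 603 to 2811 in Con-FMT against Con and 2767 to 4451 in STZ+AOS against AOS. STZ+AOS mouse 1 alone set 4 directions, for which the cause was not tested: without 1 mouse the log2 changes ranged from -1.89 to 0.35 for Cyp7a1 and -1.56 to 0.64 for Cyp8b1 in STZ+AOS against STZ, from -1.76 to 0.44 for Cyp8b1 in STZ+AOS against AOS and from -1.66 to 0.53 for its interaction. A replicate block, fitted although mouse numbers met the limit for pairing only between A10-FMT and Con-FMT, gave 5, 0, 0, 3 and 3 members called in the comparisons among Con, STZ and the microbiota groups and 5 in STZ+AOS against AOS, as without it, and 0 genes of all between A10-FMT and Con-FMT. Median-ratio scaling called 6 members in STZ against Con, adding Cyp27a1 (log2 change -0.32, adjusted p 0.0381), while fewer of all genes were called than without it. In STZ+AOS against AOS it called 4 members, beside 2654 of all genes. There the calls of Akr1d1 and Slc27a5 were lost and that of Nr0b2 was gained. Over all genes the count in A10-FMT against STZ was 24, and 95, 77 and 47 after median-ratio scaling, median centring and quantile normalization, 53 with all 6 groups in the fit and 0 to 1343 without 1 mouse (1343 without STZ mouse 3). In Con-FMT against STZ it was 1, and 73, 94, 73, 18 and 0 to 1636 (1636 without STZ mouse 3). In A10-FMT against Con it was 1953, and 1164, 1171 and 1109 after the 3 scalings, in Con-FMT against Con 2059, and 874, 888 and 824, and in STZ+AOS against AOS 4102, and 2654 after median-ratio scaling. In AOS against Con it was 1, and 41 with only those groups in the fit. Of 52 genes named from other lists and called in STZ against Con, 43 kept their call under every alternative and 0 reversed, and of 46 in STZ+AOS against AOS 39 did and 0 reversed. Against Con, Amacr and Nr1h4 in A10-FMT and Amacr and Acot8 in Con-FMT each lost the call under some alternatives. The alternatives for these lists were added after the data were seen. Depth is unknown, so no counting error could be set beside genes of a few RPKM such as Cyp39a1 in Con, and 3 mice per group limit every comparison.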
